A study of Mus musculus with 24 samples.

Results

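The cell cycle and DNA replication genes described here are 34 named genes whose products license and copy DNA or carry a cell through mitosis, measured in mouse liver. A gene was represented by the probe that carries its name on the array and is not a control spot, and by the brightest such probe over all arrays where it had several. All 34 genes had a probe, out of 37074 distinct gene names on the array. They were taken as 19 replication genes, which act at the start of replication, at the fork or at the step from G1 into S phase, and 15 mitotic genes. RNA was measured on 24 single-colour Agilent arrays, 6 for each labelled group: male control, female control, male pesticide and female pesticide. All mice were C57 BL/6J, and the diet lasted 52 weeks in every group. The control groups ate the control diet, and the pesticide groups ate a diet enriched with a mixture of pesticides. The individual pesticides and their doses are not given in the sources used here. The labels give an age of 68 weeks for every sample, which is more than the purchase age, the acclimatisation and the time on the diet add up to in the same labels.

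A cell that is about to divide first passes from G1 into S phase. Cyclin D1 and cyclin E drive this step by activating kinases that release E2F transcription factors from the retinoblastoma protein. The MCM helicase is loaded on origins by CDC6 and CDT1, the fork is built on GINS and PCNA, and nucleotides are supplied by thymidine kinase, thymidylate synthase and ribonucleotide reductase. Cyclin A, cyclin B and CDK1, with the Aurora and Polo-like kinases, then take the cell through mitosis. Most hepatocytes of an adult liver rest outside the cycle and re-enter it after injury or loss of tissue, so that transcripts of these genes are scarce in resting liver and abundant in regenerating or tumour tissue. Kupffer cells, lymphocytes and endothelial cells of the liver divide too, and the arrays measured whole liver. In such bulk RNA, fewer cells of a type and less RNA per cell cannot be told apart.

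The sex labels have to be read with care. Xist, which silences the inactive X chromosome in female cells, was well above background on all 12 labelled pesticide arrays and on 0 of the 12 labelled control arrays. The Y-linked genes Eif2s3y, Ddx3y, Kdm5d and Uty had the reverse pattern. On each array the sex-chromosome transcripts thus followed the labelled diet and not the labelled sex. Diet and sex-chromosome state therefore cannot be told apart in any difference between the labelled diets given below. The labelled male and female groups of the same diet shared 1 sex-chromosome pattern, so comparisons between them are comparisons of labels only. Groups are named by their labels throughout. All 11 hepatocyte markers that the array names, Alb and Apob among them, were well above background on all 24 arrays. The probes well above background on an array numbered 29935 to 39032 (median 31519), and 0 spots were saturated. Labelled female pesticide 3 held the highest count, where the other arrays reached at most 33393. Its median spot signal was also the highest, at 109, where the others reached at most 81. The labels do not say which mouse each array came from. The p-values therefore measure the spread between these samples, which may in part be technical, and precision is limited by how many arrays there are. Each of 3 slides carried 8 arrays, 2 per group, with replicates 1 and 2 on slide 1, 3 and 4 on slide 2, and 5 and 6 on slide 3.

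Replication and mitotic genes are known to carry different promoter elements: E2F sites in the former, and in the latter a cell cycle genes homology region (CHR) together with CCAAT boxes, which bind the factor NF-Y. RefSeq promoter windows of 300 bases, 250 before to 50 after the annotated start (mouse build GRCm38.p6), matched 27 of the 34 genes. Mcm4, Gins1, Ccne2, Ccnd1, Ccna2, Aurkb and Foxm1 had no entry in the table used. Both strands were searched for TTTGAA (CHR), CCAAT, and the E2F words TTTGGCGC, TTTGCCGC, TTTCGCGC and TTTCCCGC, which can overlap each other. The CHR word was found in 9 of 12 mitotic genes with a window, in 1 of 15 replication genes (Mcm2) and in 17.9% of all 32851 windows. CCAAT was found in 11 of 12 mitotic and 9 of 15 replication genes, against 37.4% of all windows. An E2F word was found in 1 of 12 mitotic genes (Cdk1) and 7 of 15 replication genes, against 2.26% of all windows. A gene was counted if any of its windows matched, whereas these shares are per window. Mcm7 and Uhrf1 have 2 windows each, and for each gene the E2F words lie in 1 of them. A match is a description of letters and no evidence of binding, and no match says only that these letters are not in this window. Ccnb2, Cdk1, Top2a and Mki67 each held the CHR word at 2 places, and Mcm5 and Mcm6 each held a pair of overlapping E2F words. To show these elements in place, the 200 bases before the start are printed for 3 replication and 3 mitotic genes, taken in turn by the smallest p for the labelled diets and the widest range over the arrays among genes with a single window and a match in those bases. Capitals mark every match to the words above on either strand.

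In the replication genes Mcm5 (chr8:75109309-75109508, plus strand), Mcm2 (chr6:88898781-88898980, minus strand) and Rrm2 (chr12:24708054-24708253, plus strand), the E2F pair of Mcm5 runs from position -153 to -142, counted from the start with -1 as the base before it. Mcm2 holds CCAAT and the CHR word, and Rrm2 CCAAT alone.
Mcm5: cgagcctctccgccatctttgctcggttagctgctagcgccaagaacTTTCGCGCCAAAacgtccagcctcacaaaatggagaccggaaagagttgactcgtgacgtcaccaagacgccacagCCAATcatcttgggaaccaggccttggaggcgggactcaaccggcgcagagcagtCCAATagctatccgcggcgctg
Mcm2: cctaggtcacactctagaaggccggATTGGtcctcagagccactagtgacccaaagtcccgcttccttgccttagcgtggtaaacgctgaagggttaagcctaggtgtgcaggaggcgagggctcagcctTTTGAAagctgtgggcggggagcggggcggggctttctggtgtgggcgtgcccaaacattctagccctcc
Rrm2: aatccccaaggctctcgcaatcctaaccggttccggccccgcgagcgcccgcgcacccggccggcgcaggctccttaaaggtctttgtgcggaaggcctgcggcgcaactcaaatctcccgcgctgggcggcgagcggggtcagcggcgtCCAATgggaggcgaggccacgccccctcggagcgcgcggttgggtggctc
In the mitotic genes Top2a (chr11:99024190-99024389), Aurka (chr2:172370571-172370770) and Ccnb1 (chr13:100786487-100786686), all on the minus strand, CCAAT recurs before the start, and Top2a also holds the CHR word at -179 to -174 and at -23 to -18.
Top2a: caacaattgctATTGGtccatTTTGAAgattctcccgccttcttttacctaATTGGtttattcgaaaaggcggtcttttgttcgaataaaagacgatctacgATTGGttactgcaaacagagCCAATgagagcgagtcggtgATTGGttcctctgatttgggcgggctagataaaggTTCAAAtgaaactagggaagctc
Aurka: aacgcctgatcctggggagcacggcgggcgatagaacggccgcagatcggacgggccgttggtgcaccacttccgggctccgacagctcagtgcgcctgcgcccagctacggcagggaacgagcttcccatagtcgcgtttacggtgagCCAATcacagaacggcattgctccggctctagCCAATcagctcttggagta
Ccnb1: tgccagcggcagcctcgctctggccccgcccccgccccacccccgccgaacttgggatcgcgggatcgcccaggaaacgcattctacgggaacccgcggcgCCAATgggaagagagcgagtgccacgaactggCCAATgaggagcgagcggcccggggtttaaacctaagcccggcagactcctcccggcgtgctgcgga

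**Figure D1:**
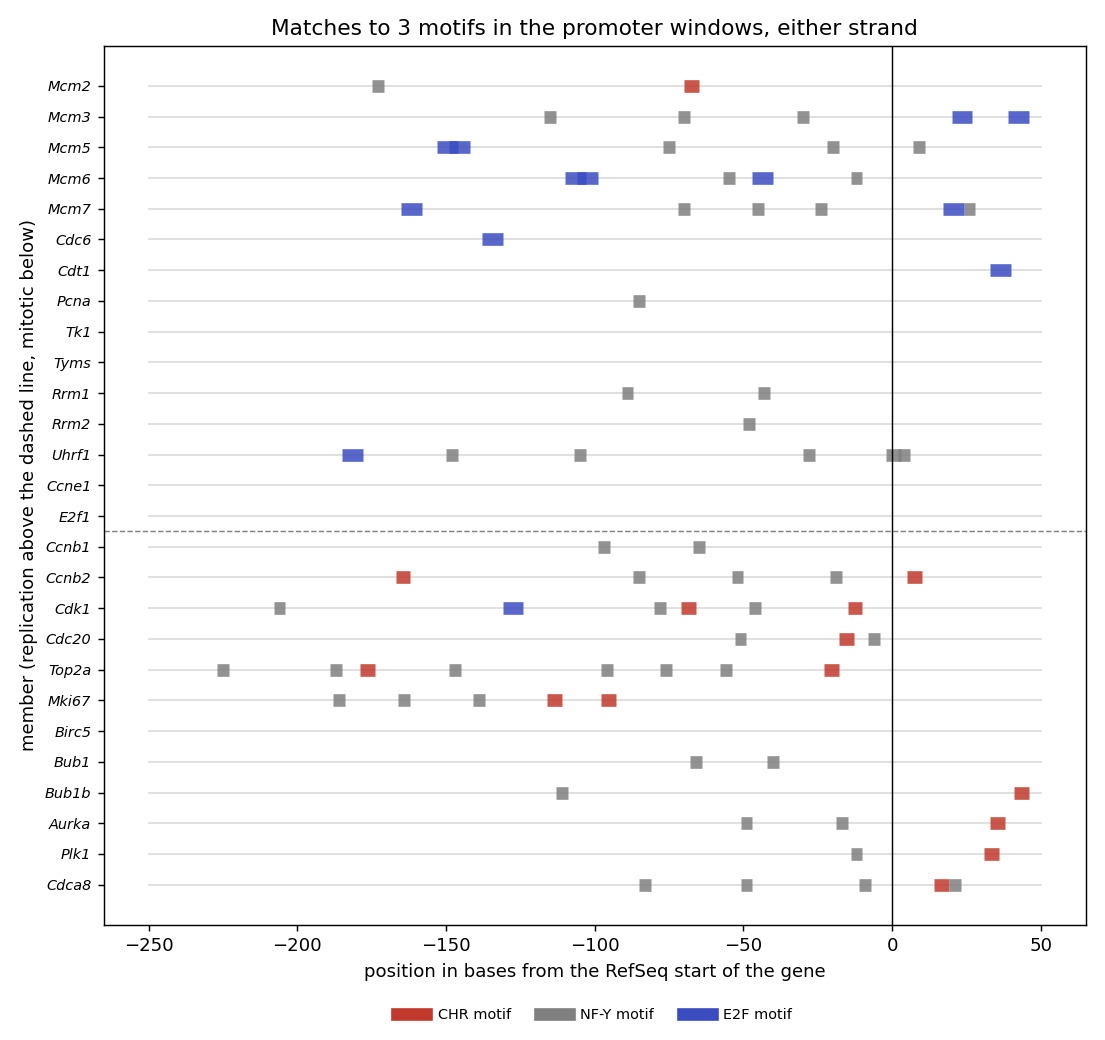
Matches to the CHR, NF-Y (CCAAT) and E2F motifs on either strand in the RefSeq promoter windows of 27 members, by position in bases from the start of the gene. CHR matches lie in 9 of 12 mitotic members and E2F matches in 7 of 15 replication members; Mcm7 and Uhrf1 have 2 windows each, drawn on 1 line.

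Most of the 34 genes were highest on 2 labelled control arrays. Labelled female control 6 had the highest of the 24 values for 20 genes, 17 of them replication genes, and labelled female control 4 for 11 genes, all mitotic. The other highest values fell on labelled male control 1 (Ccne2), labelled male control 5 (Ccnb2) and labelled male pesticide 6 (Tk1). Labelled male control 5 was among the 3 highest arrays for 18 of the 34 genes, labelled female control 4 for 32 and labelled female control 6 for 29. All values are log2 of the median spot signal after quantile normalization.

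**Figure D2:**
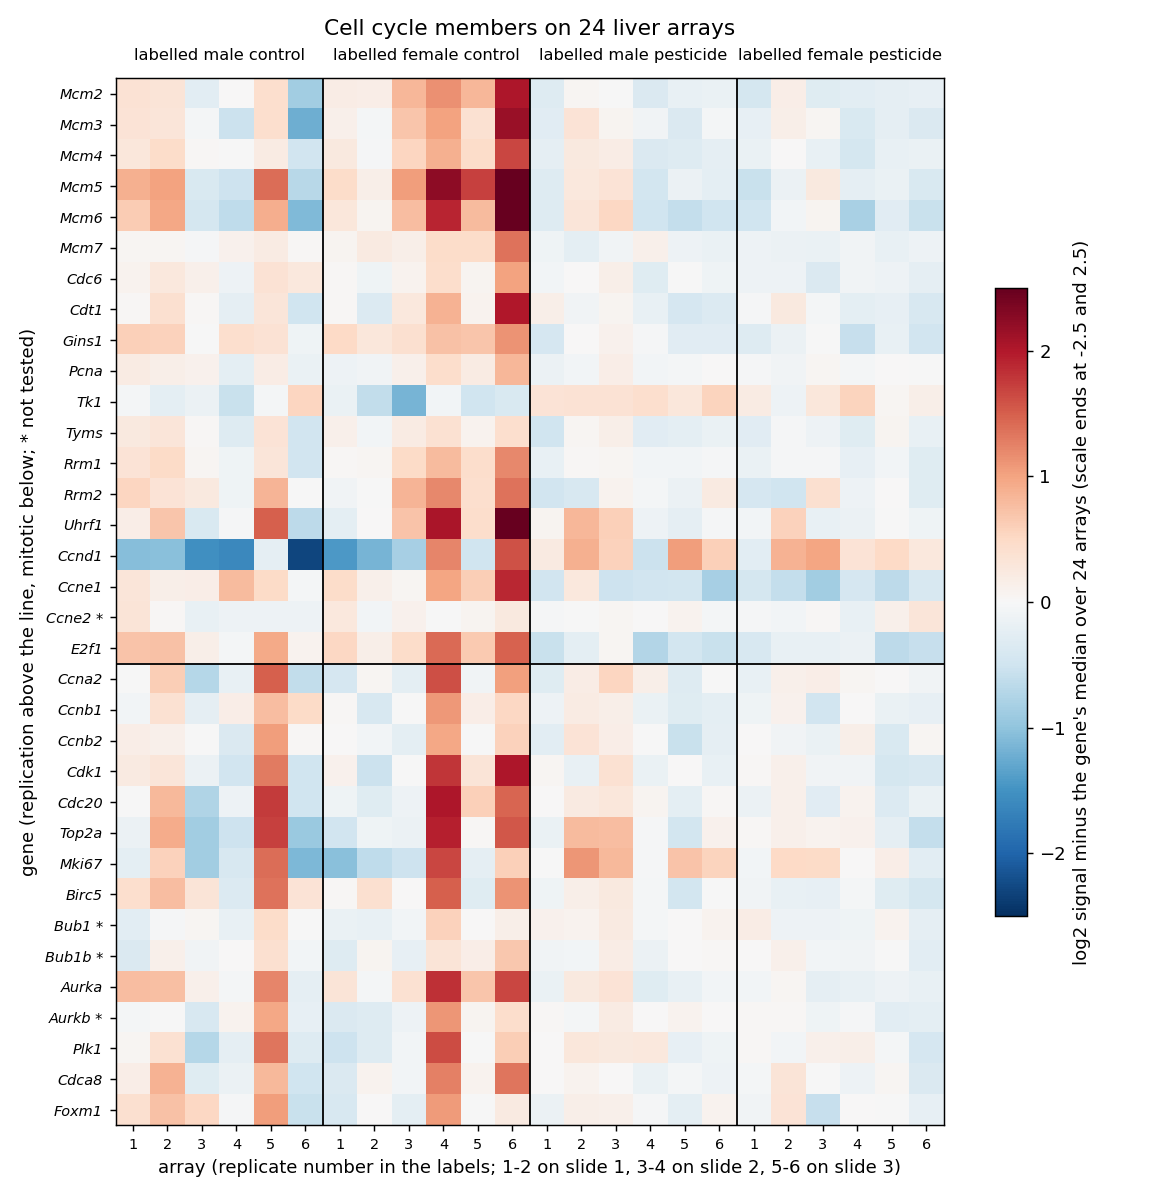
Log2 signal of the 34 members (rows) on the 24 arrays (columns), each minus the gene's median over the 24 arrays, with replication genes above the horizontal line and mitotic genes below it. The strongest columns are labelled female controls 4 and 6 and labelled male control 5, and Ccnd1 and Tk1 are the rows of genes called in labelled males that run the other way between the diets.

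The mean over the 19 replication genes was 8.89 ± 0.35 in male and 9.37 ± 0.61 in female livers labelled control, and 8.78 ± 0.16 in male and 8.71 ± 0.098 in female livers labelled pesticide (SD, n = 6). It was highest on labelled female control 6 (10.39), followed by labelled female control 4 (9.79) and labelled male control 5 (9.30). The mean over the 15 mitotic genes was 6.82 ± 0.57, 6.98 ± 0.67, 6.71 ± 0.19 and 6.59 ± 0.13 in the same order, and led on labelled female control 4 (8.02), labelled male control 5 (7.80) and labelled female control 6 (7.59). So the order of these 3 arrays differed between the classes. Without them, the labelled control arrays lay between 8.40 and 9.23 for the replication genes and between 6.35 and 7.15 for the mitotic genes, and the labelled pesticide arrays between 8.61 and 8.995 and between 6.39 and 6.98.

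**Figure D3:**
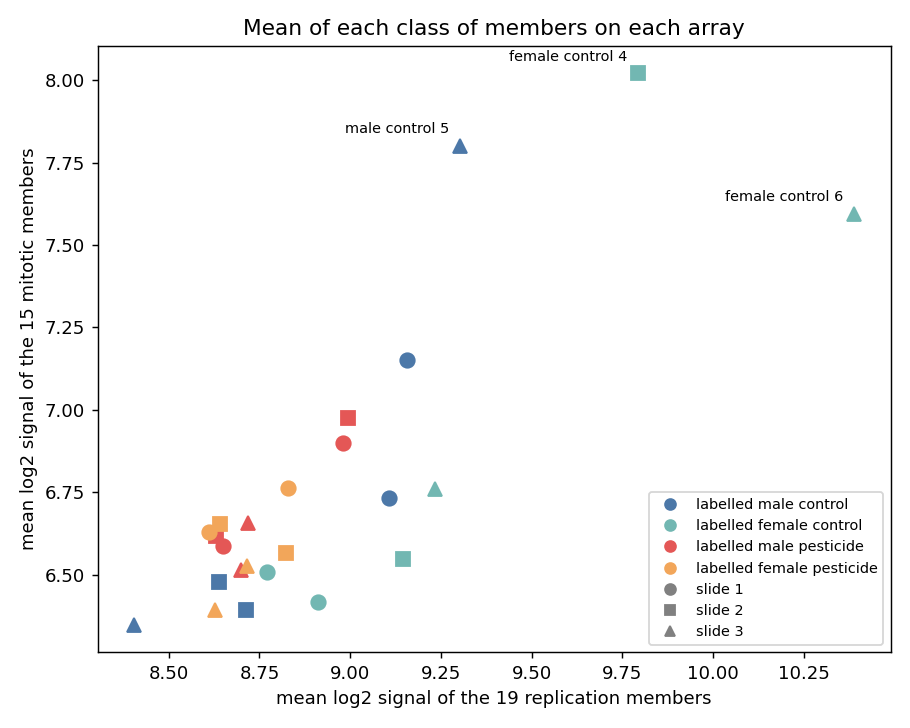
Mean log2 signal of the 19 replication members (x axis) and the 15 mitotic members (y axis) on each of 24 arrays, with colours for the labelled groups and marker shapes for the slides. Labelled male control 5 and labelled female controls 4 and 6 stand apart at mitotic means of 7.59 to 8.02, while the 12 labelled pesticide arrays lie between 6.39 and 6.98.

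Between the labelled diets, the means of both classes differed in value, and none of these differences was tested. In labelled females the replication mean was 0.67 lower in the pesticide group, by 0.12, 0.74 and 1.14 within slides 1, 2 and 3. The female mitotic mean was lower by 0.39, being 0.23 higher within slide 1 and 0.67 and 0.72 lower within slides 2 and 3. In labelled males both means differed by -0.11 (pesticide minus control). The male replication mean includes Ccnd1 and Tk1, which were higher by 1.76 and 0.47, while 15 of 18 tested replication genes were below zero and 3 above. Both means also include genes too dim to be tested. The male differences and the female mitotic difference were less than 1 SD of the controls (0.35 and 0.57 in males, 0.67 in females). The female replication difference was slightly more than its control SD of 0.61. The male replication difference was -0.32, 0.14 and -0.15 within the slides, and the male mitotic difference -0.20, 0.36 and -0.49. Labelled female control 4 lies on slide 2, and labelled female control 6 and labelled male control 5 on slide 3. With labelled female controls 4 and 6 left out, arrays chosen because the members were highest there, the female replication difference was -0.31 and the female mitotic difference 0.03.

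Of the 34 genes, 30 had a probe bright enough to test, 18 replication and 12 mitotic genes: well above background on at least 4 of 6 arrays of at least 1 group. In labelled females 14 of these 30 passed limma's test at an adjusted p under 0.05, where 18.3% of all 32078 tested probes passed. Among them 13 were lower in the pesticide group (9.44% of all probes) and 1, Tk1, was higher (8.88% of all probes). The 14 held 13 of 18 replication genes and 1 of 12 mitotic genes, Aurka. In labelled males 5 of 30 passed (22.2% of all probes), Gins1, Ccne1 and E2f1 lower (10.7% of all probes) and Tk1 and Ccnd1 higher (11.6% of all probes), so the share in males, 16.7%, was below that of all probes. All 5 were replication genes. With 0 of 12 mitotic genes called in males by limma, 0 had an unadjusted p under 0.05 too, and the smallest p was 0.05 (Birc5). For the mean of both labelled sexes 17 of 30 passed (36.1% of all probes), 15 lower (18.6% of all probes) and 2 higher (17.5% of all probes), 14 of them replication genes. The median log2 fold change over the 30 genes was -0.62 in females and -0.18 in males, beside -0.02 and -0.03 over all probes. Of all probes called in labelled males 52.1% were higher, and 38.1% when arrays were scaled to the 75th percentile of the median signal in place of quantile normalization. With labelled female controls 4 and 6 left out, 9 genes passed in females, beside 5335 of all 32078 probes. Of these 9 genes, 8 were among the 14, and the ninth was Ccnd1. Those 2 arrays were chosen because the members were highest there, so the new call is no independent evidence. The same limit applies to every p given below for a fit without them.

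**Figure D4:**
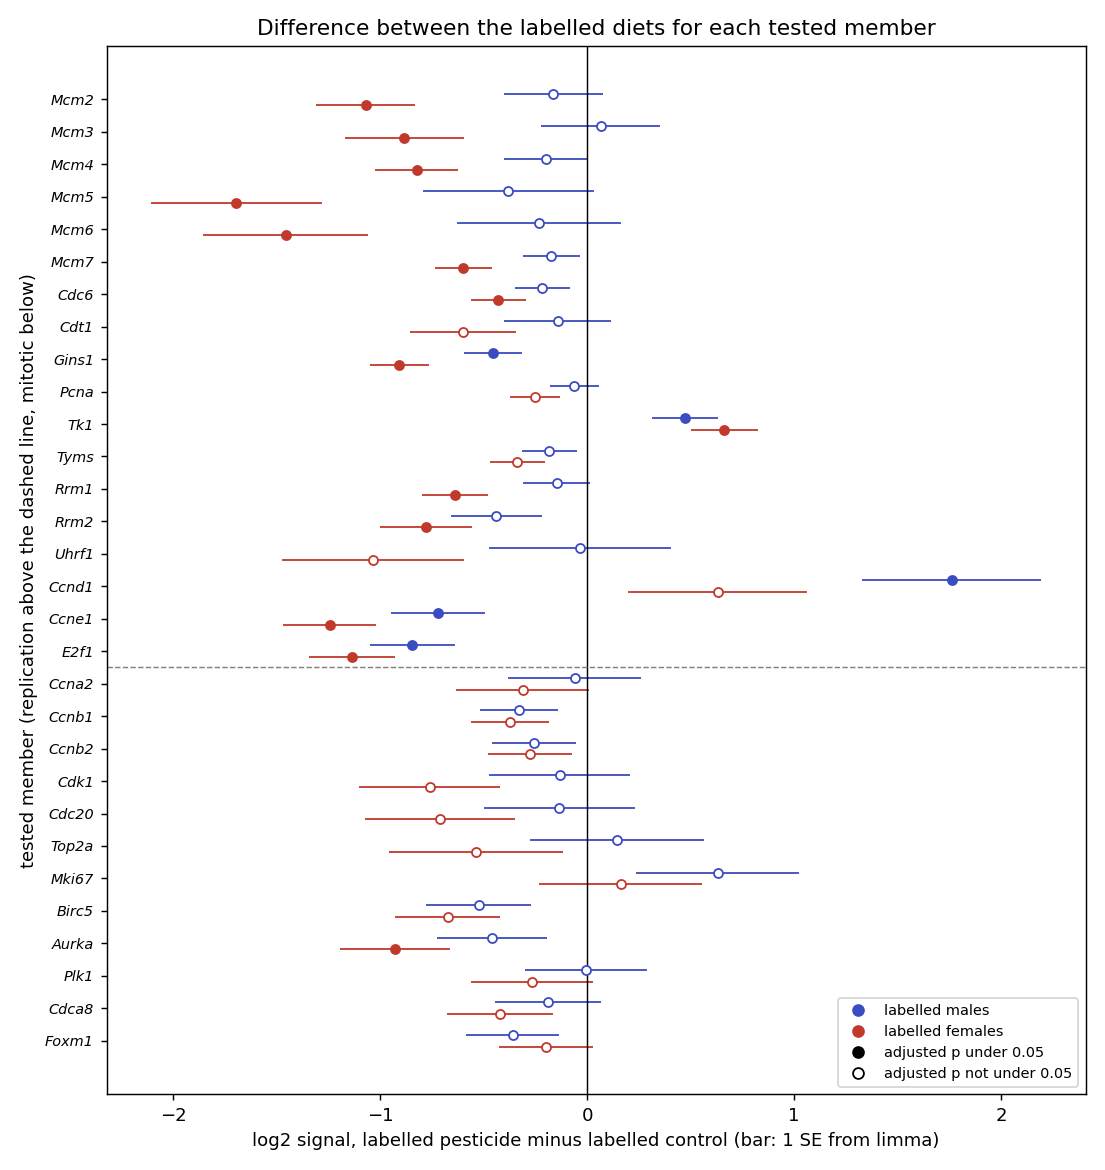
Log2 signal in labelled pesticide minus labelled control livers for the 30 tested members, labelled males in blue and labelled females in red, with bars of 1 SE from limma (6 arrays per group). Filled points passed at an adjusted p under 0.05: 13 genes lower and Tk1 higher in females, and Gins1, Ccne1 and E2f1 lower and Tk1 and Ccnd1 higher in males.

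The MCM subunits, which form the ring of the replicative helicase, were all lower in labelled female pesticide than in labelled female control livers. Mcm5 (probe at chr8:77651350-77651410 of build mm9, as for the probe positions below) ran from 7.40 through a median of 8.63 to 10.55 in female controls and from 6.69 through 7.05 to 7.49 in the female pesticide group. The groups overlapped only through the lowest control array, labelled female control 2, and the highest were female controls 6, 4 and 5. The difference was 3.24-fold, or -1.69 ± 0.41 on the log2 scale (± SE throughout, limma adjusted p = 0.0057), with -0.66, -1.64 and -2.79 within slides 1, 2 and 3. Mcm5 had the widest range of all members over the 24 arrays, 16-fold. In males its values spread from 6.55 to 8.65 (median 7.51) in controls, inside which all 6 pesticide arrays lay (6.80 to 7.59, median 7.05). The male log2 fold change was -0.38 ± 0.41 (adjusted p = 0.55).

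Mcm6 (chr1:130228178-130228237) followed the same arrays. It ran from 10.19 through 10.91 to 12.93 in female controls and from 9.32 through 9.74 to 10.20 in the female pesticide group, so that only female control 2 and female pesticide 3 crossed. Its log2 fold change was -1.46 ± 0.40 (limma adjusted p = 0.012), and -0.83 (adjusted p = 0.099) with female controls 4 and 6 left out, which ended the call. Mcm2 (chr6:88833619-88833678) ran from 7.14 through 7.81 to 9.01 in female controls against 6.55 through 6.74 to 7.15, and only female pesticide 2 rose above the lowest control, female control 2. The log2 fold change was -1.07 ± 0.24 (limma adjusted p = 0.0029), and the within-slide values were -0.31, -1.26 and -1.64. Without female controls 4 and 6, chosen because the members were highest there, it was -0.71 (limma adjusted p = 0.017). In males Mcm2 was at 6.11 to 7.40 (median 7.16) in controls and 6.63 to 7.04 (median 6.81) in the pesticide group (-0.16 ± 0.24, adjusted p = 0.67). The male Mcm6 values were 9.02 to 11.10 (median 10.22) and 9.53 to 10.65 (median 9.72), and overlapped throughout (-0.23 ± 0.40, adjusted p = 0.72).

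Mcm7 had the smallest spread of the subunits in every labelled group. It lay between 10.55 and 10.64 (median 10.59) in the female pesticide group and between 10.81 and 12.10 (median 11.07) in female controls, and the groups did not overlap. Its log2 fold change in females was -0.60 ± 0.14 (limma adjusted p = 0.0038), with -0.29, -0.43 and -1.07 within the slides. Without female controls 4 and 6 it was -0.37 (limma adjusted p = 0.0022). Those arrays were chosen because the members were highest there, so that p is no added support. In males Mcm7 was 10.71 to 10.95 (median 10.78) against 10.48 to 10.87 (median 10.61), with a log2 fold change of -0.17 ± 0.14 (adjusted p = 0.4). Mcm4 ran from 9.40 through 9.93 to 11.10 in female controls and from 8.98 through 9.25 to 9.43 in the female pesticide group. Only labelled female pesticide 2 reached the lowest control, and the log2 fold change was -0.82 ± 0.20 (limma adjusted p = 0.0055). Mcm3, from 9.46 through 10.06 to 11.68 against 9.13 through 9.30 to 9.67, had the least secure call of the subunits (-0.88 ± 0.29, adjusted p = 0.035). Leaving out 1 array at a time ended it for 7 of 24 arrays, with the adjusted p at 0.093 without female control 6. All 4 probes of Mcm3 gave a female log2 fold change between -0.98 and -0.78. In males Mcm4 ran from 8.95 to 9.89 in controls and 9.06 to 9.66 in the pesticide group, and Mcm3 from 8.30 to 9.93 and 9.16 to 9.86. Neither passed there (adjusted p = 0.51 and 0.9), and for every subunit except Mcm7 the male pesticide arrays lay closer together than the male controls.

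Among the genes that load or complete the helicase, Gins1 had the smallest p of all members. GINS1 is a subunit of the complex that joins the MCM ring to form the active helicase. Gins1 (chr2:150756868-150756927) ran from 8.85 through 9.16 to 9.68 in female controls and from 7.99 through 8.31 to 8.55 in the female pesticide group, without overlap. The log2 fold change was -0.91 ± 0.14 (limma adjusted p = 7.6e-05), the within-slide values were -0.62, -0.86 and -1.24, and the value without female controls 4 and 6 was -0.76 (adjusted p = 8e-04). In males it ran from 8.45 through 8.94 to 9.14 in controls and from 8.13 through 8.40 to 8.66 in the pesticide group, overlapping through male controls 3 and 6. The male log2 fold change was -0.46 ± 0.14 (limma adjusted p = 0.022). Leaving out male control 1, male control 2 or male pesticide 1 ended the male call, at an adjusted p of up to 0.059. The second Gins1 probe gave -0.45 in males and -0.63 in females.

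Cdc6, which loads the MCM ring on origins, ran from 6.20 through 6.38 to 7.32 in female controls and from 5.95 through 6.17 to 6.22 in the female pesticide group. The log2 fold change was -0.43 ± 0.13 (limma adjusted p = 0.026), and the value was -0.28 without female control 6. Leaving out that array or female pesticide 3 ended the call (adjusted p up to 0.059). In males Cdc6 ran from 6.18 to 6.67 (median 6.50) in controls and 6.00 to 6.45 (median 6.27) in the pesticide group and did not pass (-0.22 ± 0.13, adjusted p = 0.26). Cdt1, the partner of CDC6, had its highest value on female control 6 (10.096) and its lowest on male control 6 (7.60), and passed in neither sex (-0.60 in females, adjusted p = 0.11).

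The genes of nucleotide supply split. Tk1, whose product phosphorylates thymidine in the salvage route, was higher in the labelled pesticide groups of both sexes. It lay between 12.43 and 12.71 (median 12.51) in male pesticide livers and between 11.59 and 12.70 (median 12.06) in male controls, where 5 of 6 arrays lay below every pesticide array and male control 6 lay among them. In females it was 12.02 to 12.70 (median 12.33) against 10.98 to 12.09 (median 11.72), with female control 4 above the lowest pesticide array. The log2 fold changes were 0.47 ± 0.16 in males (limma adjusted p = 0.038) and 0.66 ± 0.16 in females (0.0059). The male call ended when any 1 of 10 arrays was left out (adjusted p up to 0.1) and when arrays were scaled to the 75th percentile of either the median or the processed signal (0.40, adjusted p = 0.077, and 0.37, adjusted p = 0.11). In females it passed throughout these, and within the slides it was 0.42, 1.03 and 0.53 there. Of 5 Tk1 probes, 4 were tested and all 4 had positive differences in both sexes.

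Rrm1 and Rrm2 encode the large and the small subunit of ribonucleotide reductase, which makes deoxynucleotides. Rrm1 ran from 8.96 through 9.38 to 10.13 in female controls and from 8.62 through 8.80 to 8.89 in the female pesticide group, without overlap (-0.64 ± 0.16, limma adjusted p = 0.0073). Rrm2 ran from 9.86 through 10.58 to 11.30 against 9.45 through 9.73 to 10.36, overlapping through female controls 1 and 2 and female pesticide 3 and 5 (-0.78 ± 0.22, limma adjusted p = 0.016). Both calls ended without female controls 4 and 6, at -0.39 (adjusted p = 0.058) and -0.45 (0.14). In males Rrm1 ran from 8.44 to 9.41 (median 9.10) and 8.74 to 8.97 (median 8.88), and Rrm2 from 9.85 to 10.80 (median 10.25) and 9.47 to 10.17 (median 9.86). The male groups overlapped for both, at adjusted p of 0.56 and 0.17. Tyms, thymidylate synthase, varied by no more than 1.89-fold over the 24 arrays. It ran from 10.53 through 10.75 to 11.01 in female controls and from 10.28 through 10.43 to 10.66 in the female pesticide group, and passed for the mean of both sexes (-0.26 ± 0.09, limma adjusted p = 0.034) but in neither sex alone (adjusted p = 0.35 in males and 0.081 in females). When arrays were scaled to the 75th percentile of the median signal it passed in females (adjusted p = 0.043). In males Tyms lay between 10.104 and 10.93 in controls and between 10.09 and 10.74 in the pesticide group.

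At the fork, Pcna, the sliding clamp, ranged 2.1-fold over the arrays and passed in neither sex (adjusted p = 0.75 in males and 0.15 in females). Uhrf1, which directs DNA methylation to newly copied strands, had one of the widest ranges, 15.2-fold, and a test that did not pass. It ran from 6.15 through 6.96 to 9.67 in female controls, with female controls 6 and 4 far above the other 4, and from 6.21 through 6.29 to 6.95 in the female pesticide group. Its female log2 fold change was -1.04 ± 0.44 (limma adjusted p = 0.1) and was -0.22 with female controls 4 and 6 left out. The slides disagreed, at 0.36, -1.55 and -1.92. In males it was 5.74 to 7.89 (median 6.46) in controls and 6.16 to 7.21 (median 6.40) in the pesticide group.

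Of the regulators of the step from G1 into S phase, E2f1 and Ccne1 were lower and Ccnd1 was higher in labelled male pesticide livers. E2f1, the transcription factor that switches on many replication genes, was 2.2-fold lower in labelled female pesticide livers and 1.8-fold lower in labelled male pesticide livers. E2f1 (chr2:154385798-154385857) ran from 7.81 through 8.24 to 9.13 in female controls and from 7.003 through 7.36 to 7.51 in the female pesticide group, without overlap. In males it ran from 7.61 through 8.09 to 8.602 and from 6.92 through 7.16 to 7.70, where only male pesticide 3 rose into the controls. The log2 fold changes were -1.14 ± 0.21 (limma adjusted p = 0.00046) in females and -0.84 ± 0.21 (0.0051) in males, with -0.62, -1.11 and -1.68 within the slides in females and -1.12, -0.40 and -1.02 in males. Both calls held when each array was left out in turn, and the female value was -0.80 (adjusted p = 0.0038) without female controls 4 and 6.

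Ccne1 encodes cyclin E1, the partner of CDK2 at the start of S phase. It ran from 6.90 through 7.38 to 8.74 in female controls and from 5.99 through 6.34 to 6.46 in the female pesticide group, without overlap, a 2.37-fold difference (-1.24 ± 0.23, limma adjusted p = 0.00044). Within the slides the female values were -0.80, -1.16 and -1.77. In males it ran from 6.79 through 7.08 to 7.63 in controls and from 6.02 through 6.37 to 7.11 in the pesticide group, where male pesticide 2 stood above the other 5, which all lay below the controls. The male log2 fold change was -0.72 ± 0.23 (limma adjusted p = 0.024) and lost the call without male control 4 or male pesticide 6 (adjusted p = 0.063 for each). Ccne2, the second cyclin E gene, was well above background on 0 of 24 arrays and was not tested.

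Ccnd1, cyclin D1, which responds to growth signals and activates CDK4 and CDK6, had the largest difference of any member in males. It ran from 9.16 through 10.15 to 11.22 in male controls and from 10.91 through 12.03 to 12.49 in male pesticide livers, with only male control 5 and male pesticide 4 crossing. The difference was 3.39-fold (1.76 ± 0.43, limma adjusted p = 0.005), with 1.62, 1.59 and 2.08 within slides 1, 2 and 3. In females the controls spread from 10.02 through 10.78 to 13.05 and the pesticide arrays from 11.18 through 11.87 to 12.44. Female controls 6 and 4, at 13.05 and 12.68, lay above every pesticide array, and the other 4 controls lay below every one. The female log2 fold change was 0.63 ± 0.43 and did not pass (adjusted p = 0.33). It was 1.43 (limma adjusted p = 0.0041) without those 2 arrays, which were chosen because the members were highest there. Since they were also the only controls above the pesticide arrays, that p is no support for a female difference.

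**Figure D5:**
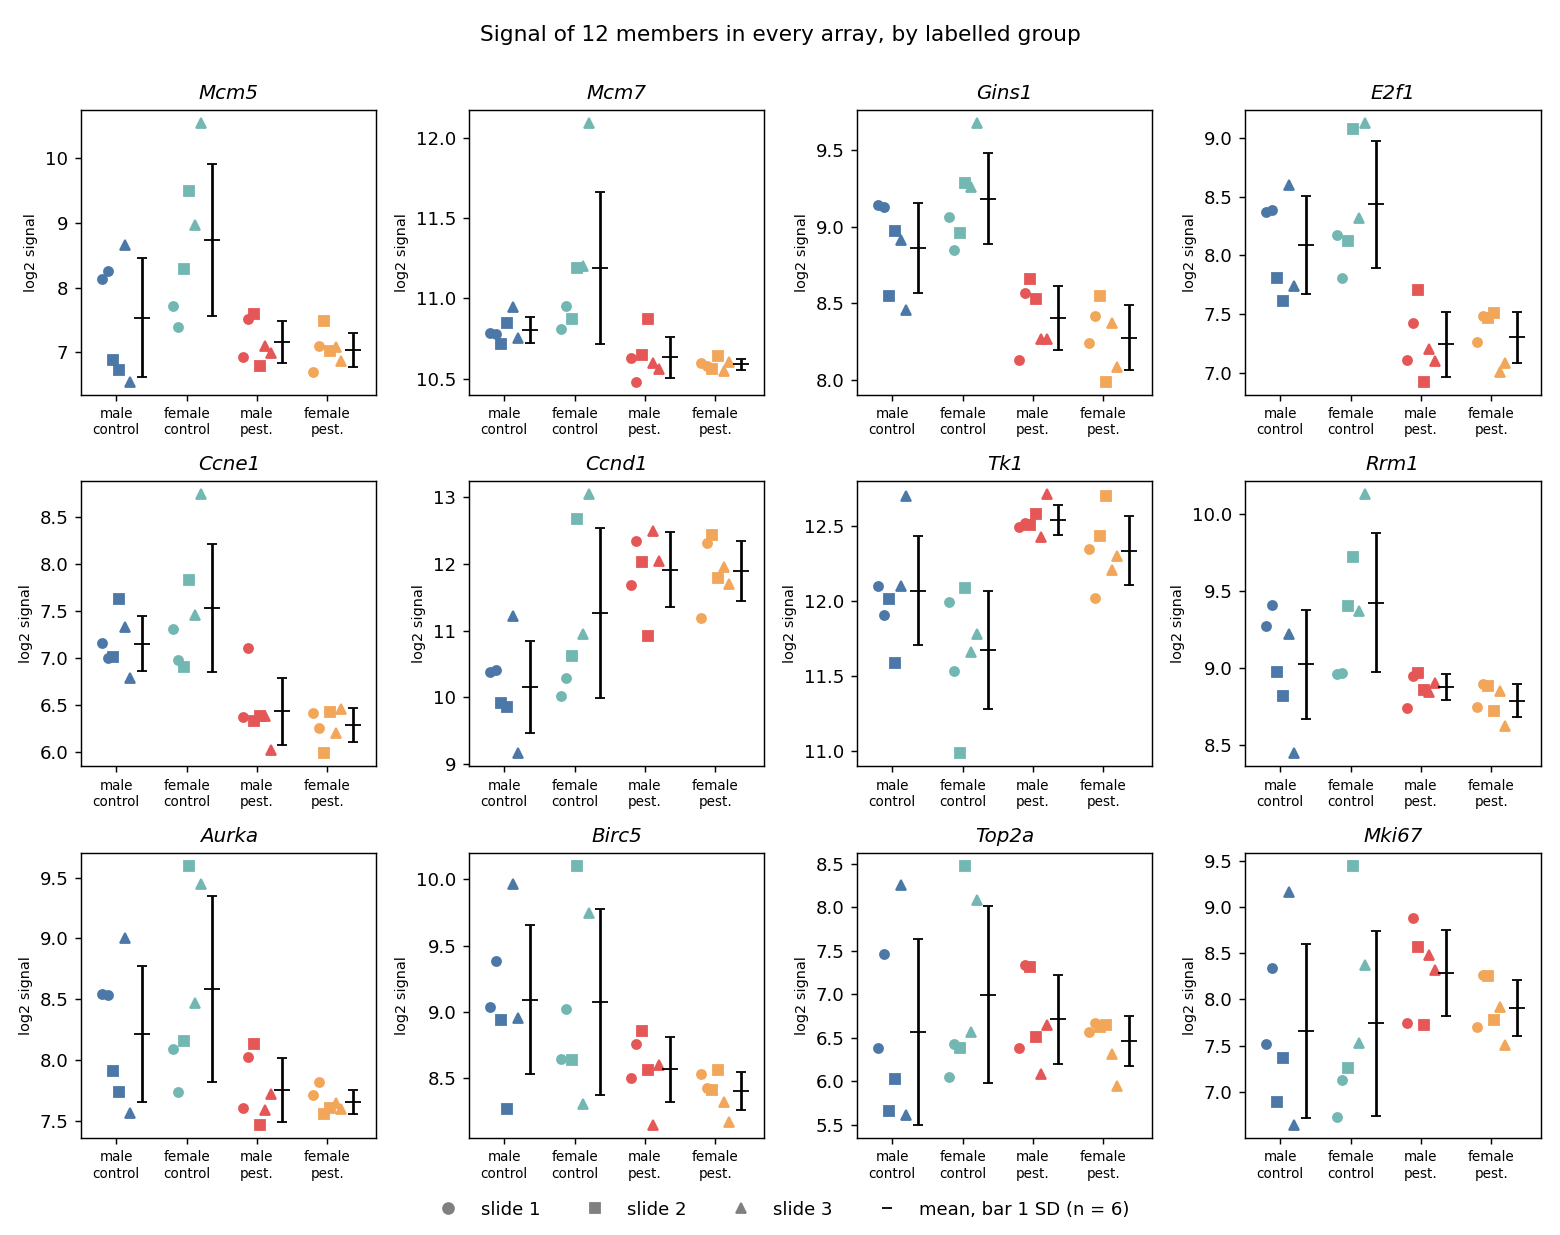
Log2 signal of 12 members in every array of the 4 labelled groups, with marker shapes for the slides and a bar for the mean and 1 SD (n = 6); the vertical axes do not start at 0 and differ between panels. Gins1, E2f1 and Ccne1 lie lower and Tk1 higher in both pesticide groups, and Ccnd1 lies higher in the males. Top2a and Mki67 are spread by a few control arrays at up to 8.47 and 9.44.

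The mitotic genes were set apart by a few labelled control arrays, mainly male control 5 and female controls 4 and 6, and rarely passed the test. Aurka, the kinase that matures centrosomes, was the only one of the 12 tested to pass in a single labelled sex. Aurka (chr2:172181734-172181793) ran from 7.74 through 8.31 to 9.60 in female controls and from 7.55 through 7.62 to 7.82 in the female pesticide group, where only female control 2 lay within the pesticide range. The log2 fold change was -0.93 ± 0.27 (limma adjusted p = 0.016), or -0.46 (0.14) without female controls 4 and 6, and leaving out female control 6 alone also ended the call. In males it ran from 7.56 through 8.22 to 8.999 and from 7.47 through 7.66 to 8.13 (-0.46 ± 0.27, adjusted p = 0.23). Birc5, or survivin, a subunit of the chromosomal passenger complex, passed for the mean of both sexes only (-0.60 ± 0.18, limma adjusted p = 0.011). It ran from 8.31 through 8.83 to 10.102 in female controls against 8.17 through 8.42 to 8.56, and from 8.27 through 8.99 to 9.97 in male controls against 8.15 through 8.58 to 8.85. Female controls 4 and 6 and male control 5 were the 3 highest of the 24.

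Ccnb1, cyclin B1, which activates CDK1 at the entry into mitosis, also passed for the mean only (-0.35 ± 0.13, limma adjusted p = 0.041). Its probe was well above background on 4 male control, 3 female control, 2 male pesticide and 2 female pesticide arrays, so most of its values are near background. It lay between 5.48 and 6.48 in male controls, 5.30 and 6.79 in female controls, 5.40 and 5.91 in male pesticide livers and 5.22 and 5.82 in female pesticide livers. Cdc20, the activator of the anaphase-promoting complex, ran from 6.05 through 6.72 to 8.55 in male controls and 6.49 through 7.04 to 8.82 in female controls. Its labelled pesticide arrays lay between 6.54 and 7.07 in males, inside the control range, and between 6.45 and 6.92 in females, from just below the lowest control. Neither difference passed (adjusted p = 0.83 and 0.18).

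Top2a, which untangles chromosomes before they part, ran from 5.62 through 6.21 to 8.25 in male controls and from 6.05 through 6.49 to 8.47 in female controls. In the pesticide groups it lay between 6.08 and 7.33 (median 6.58) in males and between 5.95 and 6.67 (median 6.59) in females. The medians of the pesticide groups were thus above those of the controls, while the female means differed the other way, by -0.54 ± 0.42 (limma adjusted p = 0.41), since female controls 4 and 6 stood at 8.47 and 8.08. Mki67, the antigen by which dividing cells are commonly stained, passed in neither sex. It ran from 6.65 through 7.45 to 9.17 in male controls and 7.73 through 8.40 to 8.88 in male pesticide livers (0.63 ± 0.39, limma adjusted p = 0.27). The male value was 0.93 (adjusted p = 0.01) with male control 5 and female controls 4 and 6 left out, arrays chosen because these genes were highest there, and with single arrays left out the adjusted p was never below 0.072. In females it ran from 6.73 through 7.39 to 9.44 and 7.51 through 7.85 to 8.27 (0.16 ± 0.39, adjusted p = 0.82), and with single arrays left out the female value ran from -0.041, without female control 1, to 0.503.

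The other mitotic genes did not pass. The cyclin genes Ccna2 and Ccnb2, the kinase genes Cdk1 and Plk1, the passenger subunit gene Cdca8 and the transcription factor gene Foxm1, which drives the mitotic genes, had log2 fold changes between -0.36 and -0.005 in males and between -0.76 and -0.2 in females. Cdk1 was well above background on 15 arrays and Foxm1 on 18. Cdk1 had the widest range of the 6, from 5.34 on female control 2 to 7.91 on female control 6. The spindle checkpoint kinase genes Bub1 and Bub1b and the kinase gene Aurkb were too dim to be tested, being well above background on 2, 4 and 7 arrays. Those 2 arrays for Bub1 were male control 5 and female control 4, and both were also among the 4 and the 7.

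The values were more spread in the labelled control groups. The SD over 6 arrays was wider in control than in pesticide livers for 32 of 34 genes in labelled males and 33 of 34 in labelled females, beside 56.1% and 63.1% of all tested probes. Over the 30 tested genes the median SD was 0.53 in male control, 0.70 in female control, 0.24 in male pesticide and 0.21 in female pesticide livers. Over all tested probes the median SD was 0.17, 0.19, 0.16 and 0.16 in the same order. The 15 mitotic genes were wider in control livers without exception in both sexes. Genes raised on the same arrays are not separate cases, and these SDs include labelled male control 5 and labelled female controls 4 and 6. Without those arrays the female mitotic mean ran from 6.42 to 6.76 in controls and 6.39 to 6.76 in pesticide livers. The male mitotic mean ran from 6.35 to 7.15 and 6.52 to 6.98. The replication mean ran from 8.77 to 9.23 and 8.61 to 8.83 in females, and from 8.40 to 9.16 and 8.63 to 8.995 in males.

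Whether the labelled diets differed by labelled sex was asked with the interaction term. With limma, 0 of 30 genes passed (0% of all tested probes), and 8 genes had an unadjusted p under 0.05, all of them replication genes, beside 1265 of 32078 probes. The largest such difference was in Mcm5, whose male fold change exceeded the female one by 1.31 ± 0.58 on the log2 scale (adjusted p = 1). The larger count of calls in labelled females is therefore not shown to differ from that in labelled males. Between labelled male and female controls 0 of 30 genes passed (0% of all tested probes), with 10 genes and 1792 probes at an unadjusted p under 0.05. Mcm2 had the smallest p there, at -0.86 ± 0.24 (male minus female, limma adjusted p = 0.3). Between the labelled male and female pesticide groups 0 of 30 passed (0% of all tested probes), with 0 genes and 1311 probes at an unadjusted p under 0.05. In both comparisons the labelled male and female groups had the same pattern of Xist and Y-linked transcripts.

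Markers of some other liver cells also differed between the labelled diets, and not on the same arrays as the members in every case. The counts stand beside 11.6% of all tested probes higher and 10.7% lower in males, and 8.88% higher and 9.44% lower in females. Of 16 Kupffer cell and macrophage markers, all well above background on every array, 14 were higher in labelled pesticide livers in males and 14 in females, and 0 were lower. Their summed signal was 29308 to 94182 in male controls, 23847 to 108683 in female controls, 70576 to 126695 in male pesticide and 49211 to 164596 in female pesticide livers. Male control 5 and female control 4 were the highest of their groups for these markers, while female control 6, the highest array for 20 members, was at 35958. Of 14 tested T and NK cell markers, 5 were higher in males and 1 in females, the female count being near the share of all probes. Their summed signal reached 45631 on female control 4, where the other labelled groups reached at most 21606, and was 15445 on female control 6; Cd8a and Ncr1 were well above background on 7 and 4 arrays. Of 9 tested B and plasma cell markers, 4 were higher in males and 0 in females, with a summed signal of 1302 to 2667 in male controls, 1201 to 3287 in female controls, 1930 to 9475 in male pesticide and 1551 to 3654 in female pesticide livers. Tnfrsf17 was well above background on 0 arrays.

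Of 13 endothelial markers, 10 were higher in males and 9 in females, with summed signals of 23079 to 33239 and 23133 to 30628 in male and female controls against 32329 to 47664 and 35067 to 46670. Of 14 stellate cell and fibroblast markers, 10 and 4 were higher. Their sum was 31207 to 45991 in male controls, 35993 to 59425 in female controls, 48152 to 55550 in male pesticide and 42925 to 55489 in female pesticide livers, and was greatest on female control 4. Of 10 tested liver tumour markers, such as Afp, 4 were higher in males, and in females 2 were higher and 1 lower. Their sum was 1554 to 3347 in male controls, 2418 to 10424 in female controls, 3200 to 5649 in male pesticide and 3541 to 10104 in female pesticide livers, with female control 4 at 10424 and female control 6 at 4272. For the 11 hepatocyte markers 0 passed in males and 2 were higher in females. Of 10 tested neutrophil markers 3 were higher in males and 4 in females, of 10 tested erythroid markers 3 and 2 were higher and 1 was lower in each sex, and of 10 tested bile duct markers 1 was higher and 1 lower in males and 1 lower in females. The bile duct counts and the counts of lower erythroid markers were near the shares of all probes. The part of any of the cell types above in the results was not tested.

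Other genes of the same pathways, from lists apart from the 34, were examined in the same fit. Of 44 other tested replication genes, 4 were lower and 1 higher in labelled males, and 14 were lower and 1 higher in labelled females. Over all tested probes 10.7% were lower and 11.6% higher in males, and 9.44% lower and 8.88% higher in females, so the male count of lower genes was near that background. Mcm10, which helps to open the loaded helicase, had a log2 fold change of -2.51 ± 0.22 in males (limma adjusted p = 7.5e-09) and -2.22 ± 0.22 in females (8e-08). Dut, the dUTPase that keeps uracil out of DNA, differed by -0.52 ± 0.08 in the mean of both sexes (limma adjusted p = 3.1e-05), Chaf1b, a subunit of the chromatin assembly factor, by -0.92 ± 0.17 (0.00017), and Gins3, another GINS subunit, by 0.31 ± 0.05 (5.8e-05). The median log2 fold change of this list was -0.08 in males and -0.27 in females.

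Of 46 other tested mitotic genes, 3 were lower and 1 higher in males, and 10 were lower in females, beside 10.7% and 9.44% of all probes lower, so the male count was again no higher than the background. In the mean of both sexes Spc24, a kinetochore subunit, differed by -1.32 ± 0.12 (limma adjusted p = 5e-09), Ccnf, cyclin F, by -1.68 ± 0.16 (2.5e-08), Nek2, a centrosome kinase, by -1.18 ± 0.14 (5.4e-07), and Cks1b, a subunit of CDK complexes, by -0.53 ± 0.1 (0.00034). The median log2 fold change of this list was -0.06 in males and -0.29 in females.

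Of 28 tested G1 cyclins, kinases and E2F or RB factors, 4 were lower and 1 higher in males, and 3 were lower in females, both near the 10.7% and 9.44% of all probes that were lower. Tfdp1, the dimer partner of E2F factors, differed by -0.51 ± 0.06 in the mean of both sexes (limma adjusted p = 1.5e-06), and Ccnd2, cyclin D2, was higher by 0.57 ± 0.11 (0.00036). Cdk6, a kinase that partners D-type cyclins, differed by -0.44 ± 0.1 (limma adjusted p = 0.0017), and Lin54, a subunit of the complex that binds the CHR, by -0.28 ± 0.07 (0.0027). Of 18 tested cell cycle inhibitors, 4 were higher and 1 lower in males and 5 higher and 1 lower in females, beside 11.6% and 8.88% of all probes higher. Cdkn1c, which encodes p57 (1.15 ± 0.09, limma adjusted p = 9.7e-10), Gadd45b, a stress-induced gene (1.12 ± 0.13, 6.9e-07), and Cdkn2c, which encodes p18 (1.25 ± 0.16, 2.5e-06), were higher in the mean of both sexes, and Zmat3, a target of p53, was lower (-0.3 ± 0.06, 0.00035). These 4 lists were chosen with results of these arrays known, and their counts are no independent evidence of a direction.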

How the data were processed

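RNA of 24 liver samples was measured on 24 single-colour Agilent arrays. The deposited scanner files hold, per the file headers, the median intensity of each spot from Agilent Feature Extraction 10.10.1.1, and the submitters' processing notes also name limma. The authors' deposited value table holds log2 values of 31532 probes, and was used as an alternative; its filter is not given in the sources used here.

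Control spots and outlier spots were left out. Median signals were log2-transformed without background subtraction, spots of a probe were averaged, and the probe values were then quantile-normalized. The 32078 probes well above background on at least 4 of 6 arrays of at least 1 group were tested with limma 3.58.1 in R 4.3.3, with 1 mean per group over all 24 arrays, two-sided tests and Benjamini-Hochberg adjustment over all of them, at 0.05. The script was tested on simulated data. Means of the 19 replication and 15 mitotic genes per array carry no test.

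Full values were given for every gene that passed in any of 6 comparisons, for the smallest p of each role in each labelled sex, and for the 3 widest ranges of each class. Promoters printed were to have the smallest p or the widest range; the limits to genes with a single window and a match were added afterwards. The members, lists and rules were chosen with earlier results of these data known. Probe positions are those of build mm9 in the scanner files; no mm9 annotation was used here. Alternatives were other background corrections, scalings and filters, the deposited table, slide and replicate blocks, array weights, each slide alone and each array left out. Leaving out labelled female controls 4 and 6, with or without labelled male control 5, was chosen after seeing the data.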

Additional observations from a re-analysis of the deposited data

Results flagged for a closer look

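In 3 of 96 groups of 6 arrays examined (22 genes and both class means in each of the 4 groups), 1 array stood apart from the rest by more than Dixon's critical gap for 6 values. Chance marks about 5% of groups. Mcm7 was at 12.1 on labelled female control 6, where the nearest other female control was at 11.2, a gap of 0.696 of the range. Ccne1 was at 7.11 on labelled male pesticide 2, against 6.38 on the nearest array of that group, a gap of 0.663 of the range. Uhrf1 was at 6.95 on labelled female pesticide 2, against 6.38 on the nearest, a gap of 0.767 of the range.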

How the results depend on the processing

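Counts of genes called and differences of the class means kept within 1.5 times or 1 SD of their values under other background corrections, scalings and filters, the deposited value table and the slide block, with these exceptions. On slides 1, 2 and 3 alone, with 2 arrays a group, 2, 0 and 1 genes passed in labelled males, 0, 1 and 1 in labelled females, and 5, 1 and 4 for the mean of both, fewer arrays being fitted. Of all 32078 probes 1052, 583 and 459 passed there in males, 1041, 319 and 346 in females, and 3499, 1525 and 1792 for the mean. The female replication difference was -0.12 on slide 1 and -1.14 on slide 3, the female mitotic difference 0.23 on slide 1, and the male mitotic difference 0.36 on slide 2. With array weights 8 genes passed in males, beside 9147 of 32078 probes (7131 without weights), and the cause was not tested. With labelled female controls 4 and 6 left out, with or without labelled male control 5, 9 genes passed in females. Over all probes 5335 passed in females without these female controls, and 5308 with labelled male control 5 left out too. With each array left out in turn, 3 to 5 genes passed in males, 11 to 16 in females (11 without female control 6) and 15 to 18 for the mean, and 0 for the interaction and for both comparisons of labelled sexes. Of all 32078 probes 5921 to 7483 passed in males, 4777 to 6526 in females and 10793 to 12024 for the mean. The replication difference then ran from -0.205 to -0.025 in males and -0.787 to -0.464 in females, and the mitotic difference from -0.202 to 0.089 in males and -0.498 to -0.177 in females; the male values nearest or above zero, -0.025 and 0.089, came without male control 5. The male count was 3 without male control 1, 2 or 4 or male pesticide 1 or 6. Replicate numbers did not pair the samples (correlations of 12 pairs -0.12 to 0.22, 3 of them over 0.1, and 2 arrays closest to their own number). With the replicate block 5, 13 and 17 genes passed in males, females and the mean, beside 8099, 6751 and 12652 of all probes. Genes well above background on few arrays limit what can be read of Ccnb1, Cdk1 and Foxm1.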
